A study of Mus musculus with 3 samples.

Results

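The genes analysed here are the 10 that make up the core machinery of mitochondrial fusion and fission: *Opa1*, *Mfn1*, *Mfn2*, *Dnm1l*, *Fis1*, *Mff*, *Mief1*, *Mief2*, *Oma1* and *Yme1l1*. They were chosen by gene symbol, and all 10 were found among the 50686 genes of the count table, each with 1 row. Poly(A) RNA had been sequenced from 3 stable BCR::ABL1+ cell lines with the genotype K43M, written Cdk6 KM/KM below, in which both copies of *Cdk6* encode a kinase inactive protein. The lines were labelled Pre/Pro-B-cells and came from bone marrow of C57BL/6 mice, transduced with a retroviral vector for BCR-ABL(p185) and GFP and kept in culture until lines grew out. The ages of the mice, whether each line came from its own mouse and whether it descended from 1 clone were not given in the sources used here. The study set these lines against Cdk6+/+ and Cdk6-/- lines, which were not analysed here. The values therefore give transcript levels in kinase inactive lines and how far these lines differ, and no change with genotype was computed.

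Mitochondria constantly fuse and divide. Fusion of the outer membranes is carried out by the mitofusins MFN1 and MFN2 and fusion of the inner membranes by OPA1, whose long and short forms are set by the proteases OMA1 and YME1L. Division requires the dynamin-related GTPase DRP1, encoded by *Dnm1l*, which is drawn from the cytosol to the outer membrane by MFF, MiD51 (*Mief1*) and MiD49 (*Mief2*), while FIS1 sits on the same membrane and takes part in stress-related division. The balance of both processes shapes the mitochondrial network, cristae, respiration and the removal of damaged mitochondria.

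The libraries held between 19633463 and 25773221 counts, so that a count of 0 allows a level of up to 0.152 CPM (reads of a gene scaled to a common library size), which corresponds to 3 counts. All 10 B-lineage markers reached at least 1 CPM in every line, with a summed level of 3786 to 4256 CPM. By contrast, the 5 myeloid markers summed to 1.75, 2.08 and 3.93 CPM in lines 1, 2 and 3, mostly from *Lyz2*, with *Elane* at 0. *Cd3e*, *Cd3g*, *Cd8a*, *Hba-a1* and 3 of 3 stromal markers were at 0 in every line. *Cdk6* itself was read at 449.5, 334 and 239 CPM in lines 1, 2 and 3, and the mutated base cannot be seen in counts per gene. Between any pair of libraries at least 6102 genes differed beyond counting noise, so none was taken for a duplicate. In bulk RNA, fewer cells of a type and less RNA per cell cannot be told apart.

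The promoters were read first, because several genes of mitochondrial biogenesis are known targets of the factor NRF-1. The NRF-1 motif (GCGCA, any base and GCGC) was searched on both strands from 250 bases before to 50 bases after the RefSeq start site nearest to that of Gencode and was found for 2 of the 10 genes, *Opa1* and *Oma1*. It occurred in 4.59% of 32817 promoters of the same length. The ETS motif CCGGAAG was found in the promoters of 4 genes, *Mfn1*, *Fis1*, *Mief1* and *Yme1l1*, and in 8.86% of all promoters. The following stretches are the last 100 bases before the start site on the plus strand (RefSeq, GRCm38.p6), shown for the inner membrane fusion gene, for the protease acting on its product and for the gene that varied most between lines. Capitals mark the NRF-1 motif in the first and second and the ETS motif in the third.
Opa1, chr16:29579234-29579333: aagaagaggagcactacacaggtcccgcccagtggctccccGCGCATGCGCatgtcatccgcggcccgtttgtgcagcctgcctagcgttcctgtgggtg
Oma1, chr4:103313746-103313845: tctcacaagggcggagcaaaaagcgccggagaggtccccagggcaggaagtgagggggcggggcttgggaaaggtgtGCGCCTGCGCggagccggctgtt
Fis1, chr5:136953175-136953274: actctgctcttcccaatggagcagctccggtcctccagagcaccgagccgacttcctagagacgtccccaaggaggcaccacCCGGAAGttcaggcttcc
The *Oma1* match lies on the minus strand, so its letters appear in the reverse complement. The motif began 59 bases before the start site in *Opa1*, 23 bases before it in *Oma1* and, for the ETS motif, 18 bases before it in *Fis1*. The SP1 motif GGGGCGGGG was present for 4 of the 10 genes against 11.4% of all promoters, and the NFY motif CCAAT for 7 of 10 against 37.4%. No match overlapped a match of another motif. *Mfn2* held none of the 4 motifs in this window, and *Mff* held the NFY motif alone. The shares of all promoters cover every RefSeq window, including further promoters of a gene and genes not expressed in these lines. The 10 genes were all expressed and entered with their nearest window only, so these shares are not a matched background. These matches describe letters only, and no factor binding was measured in these libraries.

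To see whether the kinase inactive lines shared 1 level of fusion and fission transcripts, the counts of each gene were tested for homogeneity over the 3 libraries. This chi-square test, with Benjamini-Hochberg adjustment over 13974 genes at 0.05, compares libraries and not conditions. All 10 genes were expressed in every line, with means from 10.2 to 235 CPM. The differences between lines exceeded counting noise for 5 of 10 genes, namely *Mfn2*, *Fis1*, *Mff*, *Mief2* and *Yme1l1*, against 66.8% of all genes tested and 79.7% of the 7566 genes within the same range of mean CPM. None of the 10 genes reached a highest line 1.5 times its lowest line (in CPM + 1), against 24.5% of all genes tested and 19.7% of those within this range of CPM. Without line 3, *Fis1* alone of the 10 passed the test, against 47.1% of all genes then tested, and without line 1 there were 4, against 54.3%. Without line 2 there were 8, against 54.5%, so the number passing changed with the line left out. The shares with a line left out cover all genes then tested. They were not computed for genes within the range of mean CPM of the 10 genes. Folds between lines are given on the scale of CPM + 1.

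**Figure D1:**
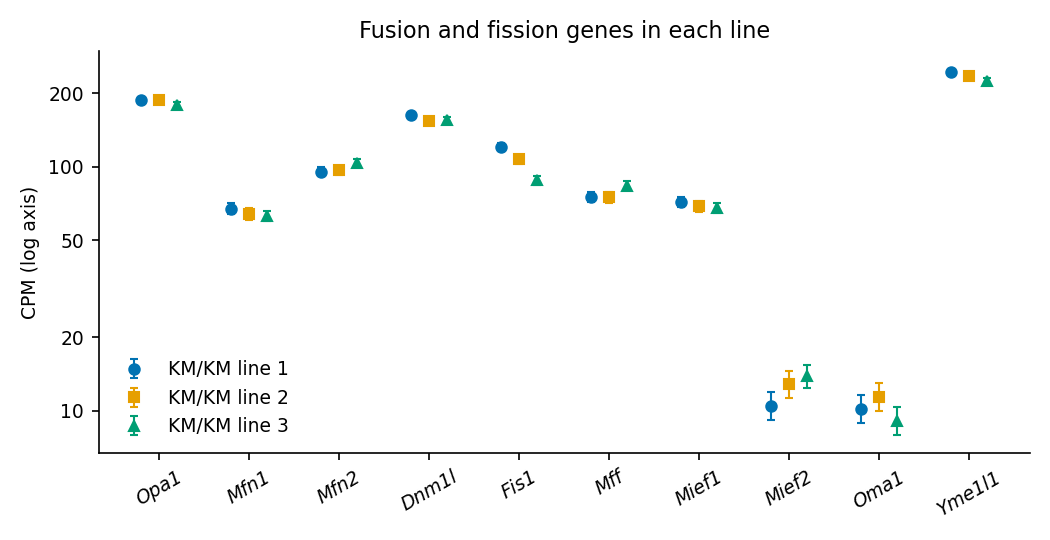
Level of each fusion and fission gene in the 3 Cdk6 KM/KM lines. The vertical axis is CPM on a log scale, each point is 1 line and each bar its 95% exact Poisson interval, which covers counting error only. The lines lie close together for most genes, whereas *Fis1* lies at 120 CPM in line 1 and at 88.0 CPM in line 3.

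Of the fusion genes, *Opa1* and *Mfn1* did not pass the test with all lines, while *Mfn2* did and was slightly higher in line 3. *Opa1* (ENSMUSG00000038084.16, chromosome 16, 29579334 to 29654884, mm10, plus strand) encodes the inner membrane fusion GTPase. It was read at 187.0, 186.9 and 179.1 CPM in lines 1, 2 and 3, a mean of 184 ± 4.58 CPM (SD, n = 3). Line 3 was the lowest, 1.04-fold below line 1 (chi-square test, adjusted p = 0.0950), and the gene passed with library size alone as the scale (0.00817) or without line 2 (0.0195). *Mfn1* (ENSMUSG00000027668.13, chromosome 3, 32529465 to 32579239, plus strand), which tethers adjoining outer membranes, had 67.2, 64.0 and 62.7 CPM and a mean of 64.6 ± 2.31 CPM (SD, n = 3). Its counting intervals (95%, exact Poisson) overlapped between all lines, and its lines did not pass the test (adjusted p = 0.196) except without line 2 (adjusted p = 0.0460). *Mfn2* (ENSMUSG00000029020.13, chromosome 4, 147873599 to 147904704, minus strand), the mitofusin that also sits at contacts with the endoplasmic reticulum, had 95.5, 96.6 and 103 CPM, averaging 98.5 ± 4.31 CPM (SD, n = 3). Line 3 was the highest, by up to 1.08-fold (adjusted p = 0.0183). This call rested on line 3 (adjusted p = 0.858 without it) and was lost with library size alone as the scale (adjusted p = 0.101).

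The fission GTPase gene *Dnm1l* (ENSMUSG00000022789.14, chromosome 16, 16312230 to 16358959, minus strand) likewise varied little between lines. It had 162, 154 and 155 CPM in lines 1, 2 and 3 and a mean of 157 ± 4.56 CPM (SD, n = 3). Line 1 was the highest by 1.05-fold, which did not pass the test (adjusted p = 0.0810). The gene came to pass with DESeq2 size factors (adjusted p = 0.0346), library size alone (0.0212), a filter of 10 counts in every line (0.0493) or without line 2 (0.0213). Of its 50-base stretches, 7.99% also occur in other annotated genes, among them the overlapping antisense gene *Gm49521*. The counts from this small part of the gene are therefore uncertain.

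The membrane receptors and adaptors of fission showed the widest range of behaviour. *Fis1* (ENSMUSG00000019054.13, chromosome 5, 136953275 to 136966234, plus strand), a small protein anchored in the outer membrane by its tail, had 120, 107 and 88.0 CPM in lines 1, 2 and 3 and a mean of 105 ± 16.3 CPM (SD, n = 3). The counting intervals of the 3 lines did not overlap, at 115.9 to 125.1, 102.9 to 112.1 and 84.41 to 91.74 CPM. Line 1 exceeded line 3 by 1.36-fold (chi-square test, adjusted p = 3.98e-26), and the gene passed under 8 of 8 settings, with adjusted p from 2.42e-29 to 0.000221. *Mff* (ENSMUSG00000026150.14, chromosome 1, 82724890 to 82752394, plus strand), the main DRP1 adaptor of the outer membrane, had 75.1, 75.1 and 83.5 CPM and a mean of 77.9 ± 4.86 CPM (SD, n = 3). Line 3 was above the other lines by 1.11-fold (adjusted p = 0.00151), and without it the remaining pair did not pass (adjusted p = 0.956). Of the *Mff* stretches, 4.37% are shared with *C430014B12Rik* on the opposite strand.

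The paralogs *Mief1* and *Mief2*, whose products MiD51 and MiD49 recruit DRP1, were measured at different depth. *Mief1* (ENSMUSG00000022412.12, chromosome 15, 80234018 to 80253371, plus strand) had 71.6, 68.9 and 67.8 CPM, averaging 69.4 ± 1.97 CPM (SD, n = 3). Its lines did not pass the test (adjusted p = 0.336), nor did they under any of 8 settings, where adjusted p ranged from 0.0926 to 0.718. Of its stretches, 3.22% are shared with *AC140267.1*, which overlaps it on the same strand. *Mief2* (ENSMUSG00000018599.5, chromosome 11, 60728398 to 60732951, plus strand) was read only 228, 253 and 352 times, or 10.5, 12.8 and 13.8 CPM, averaging 12.4 ± 1.70 CPM (SD, n = 3). Line 1 was the lowest, and line 3 exceeded it by 1.29-fold (adjusted p = 0.00833). The call was lost without line 1 (adjusted p = 0.465) and without line 3 (adjusted p = 0.0639). The difference in spread between the paralogs was not tested, and the lower counts of *Mief2* give wider counting intervals, such as 9.18 to 12.0 CPM in line 1.

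Both proteases act on OPA1 at the inner membrane, OMA1 on stress and YME1L also at rest. *Oma1* (ENSMUSG00000035069.3, chromosome 4, 103313812 to 103371868, plus strand) was the lowest of the 10 genes, with 221, 225 and 232 counts, or 10.2, 11.4 and 9.11 CPM, and a mean of 10.2 ± 1.15 CPM (SD, n = 3). Line 2 was the highest and line 3 the lowest, 1.23-fold apart, which did not pass the test (adjusted p = 0.0802) but did once line 1 was left out (adjusted p = 0.0311). *Yme1l1* (ENSMUSG00000026775.9, chromosome 2, 23156369 to 23199260, plus strand) was the highest, with 245, 235 and 225 CPM and a mean of 235 ± 9.63 CPM (SD, n = 3). Line 1 exceeded line 3 by 1.09-fold (adjusted p = 2.00e-04), with line 2 between them, and the call was lost without line 1 (adjusted p = 0.0712) or line 3 (adjusted p = 0.0549).

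Levels can be set against each other between genes only per length, so CPM were divided by the length of all exons of a gene in kb. On this scale *Fis1* led with 61.4 ± 9.51 CPM per kb (SD, n = 3) and 70.3, 62.7 and 51.4 CPM per kb in lines 1, 2 and 3. It stood at the percentile 94.3 of the genes tested. *Dnm1l* with 30.2 and *Yme1l1* with 29.3 CPM per kb followed, and the ranges of this pair overlapped. *Opa1* with 23.4, *Mfn2* with 19.0 and *Mfn1* with 10.6 CPM per kb came next, and each was separated from its neighbours in every line. *Mief1* with 8.56 and *Mff* with 7.98 CPM per kb overlapped, as did the lowest pair, *Oma1* with 4.77 and *Mief2* with 4.56 CPM per kb, at the percentiles 48.5 and 47.8.

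The length used matters for the order. When the transcript with the longest coding sequence stood for the gene, *Fis1* at 134, *Dnm1l* at 73.0, *Opa1* at 58.5, *Yme1l1* at 49.9 and *Mff* at 37.3 CPM per kb were highest. *Opa1* thereby passed *Yme1l1*, and *Mff* rose from place 8 to place 5. *Fis1* and *Dnm1l* kept the first and second place, *Oma1* at 5.34 and *Mief2* at 4.91 CPM per kb the last. Which transcripts the lines used was not measured by counts per gene.

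**Figure D2:**
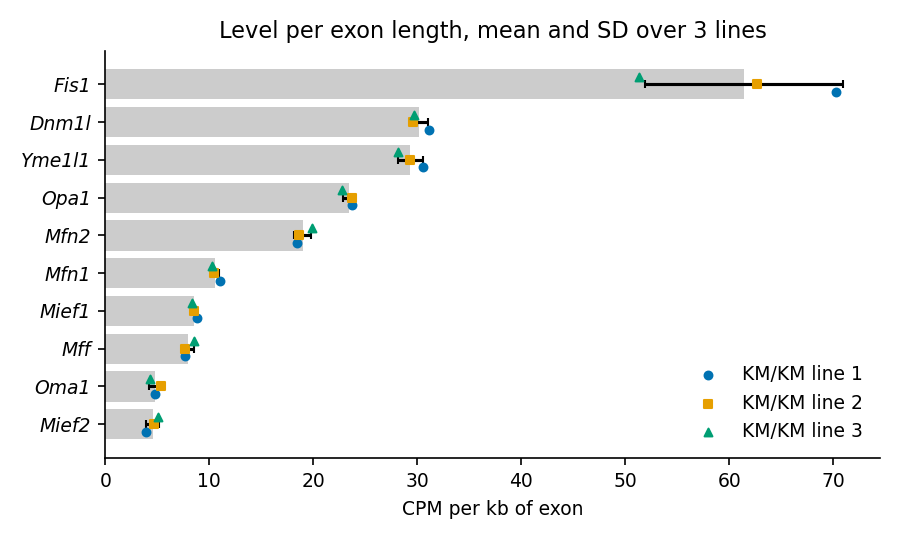
Level per length of the 10 genes in order of their mean. The horizontal axis is CPM per kb of exon, gray bars are the mean, black error bars the SD and points the 3 lines. *Fis1* is set apart at 61.4 CPM per kb, and the pairs *Dnm1l* and *Yme1l1*, *Mief1* and *Mff*, and *Oma1* and *Mief2* overlap.

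Genes of like role were then set against each other within each line. *Mfn2* exceeded *Mfn1* per length by 0.74, 0.83 and 0.96 on the log2 scale in lines 1, 2 and 3, a mean of 0.84 ± 0.11 (SD, n = 3) or 1.79-fold. *Mief1* exceeded *Mief2* by 1.19, 0.85 and 0.72, a mean of 0.92 ± 0.25 (SD, n = 3) or 1.89-fold. *Yme1l1* exceeded *Oma1* by 2.69, 2.46 and 2.73, a mean of 2.63 ± 0.14 (SD, n = 3) or 6.17-fold. The order within each of these pairs was thus shared by all lines. No test was run on these ratios.

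The summed level of the fusion genes lay close together between lines, at 53.1, 52.8 and 52.9 CPM per kb. This sum joined genes that differed in direction, since *Opa1* and *Mfn1* were lowest in line 3 and *Mfn2* was highest there. As a share of all counts, without weighting by length, the fusion genes took 0.0352%, 0.0349% and 0.0341% in lines 1, 2 and 3. The 5 fission genes summed to 122, 113 and 103 CPM per kb and the proteases to 35.3, 34.6 and 32.4 CPM per kb. The log2 ratio of fission to fusion transcripts per length was accordingly 1.20, 1.10 and 0.96, a mean of 1.09 ± 0.12 (SD, n = 3), and was highest in line 1. *Fis1* alone made up 57.7%, 55.4% and 49.8% of the fission sum. Without *Fis1* the ratio was -0.04, -0.06 and -0.03, with the fission sum slightly below the fusion sum in every line. This direction turned with the longest coding transcript as the length, where the ratio without *Fis1* was 0.43, 0.40 and 0.47. All 10 genes together took 0.105%, 0.102% and 0.0976% of the counts in lines 1, 2 and 3.

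The spread between lines was small for most of the 10 genes. The SD of log2(CPM + 1) over the 3 lines had a median of 0.06 over the 10 genes, against 0.17 over all genes tested and 0.15 over genes within the same range of mean CPM. It was 0.04 for *Opa1*, *Dnm1l* and *Mief1*, 0.05 for *Mfn1*, 0.06 for *Mfn2* and *Yme1l1* and 0.09 for *Mff*. The 3 genes with more spread were *Oma1* with 0.15, *Mief2* with 0.19 and *Fis1* with 0.23, and of these *Oma1* and *Mief2* had the fewest counts of the 10. Of all genes tested, 43.6% had a lower SD than *Oma1*, 54.8% a lower SD than *Mief2* and 63.6% a lower SD than *Fis1*. An SD over 3 lines is itself uncertain, and leaving out 1 line moved it by over 1.5 times for 9 of the 10 genes, all but *Oma1*. Without line 3 it was 0.118 for *Fis1*, 0.00328 for *Opa1*, 0.00841 for *Mfn2* and 0.00288 for *Mff*. Without line 1 it was 0.0204 for *Mfn1*, 0.00477 for *Dnm1l*, 0.0173 for *Mief1* and 0.0709 for *Mief2*. Without line 2 it was 0.0957 for *Yme1l1*, 0.0567 for *Opa1*, 0.0816 for *Mfn1* and 0.0676 for *Mief1*. The median over the 10 genes lay between 0.0488 and 0.0881 with a line left out. The coefficient of biological variation estimated by edgeR was below the trend at the same abundance for 10 of 10 genes, as it was for 79.7% of all genes tested and 82.9% of those within the range of CPM.

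**Figure D3:**
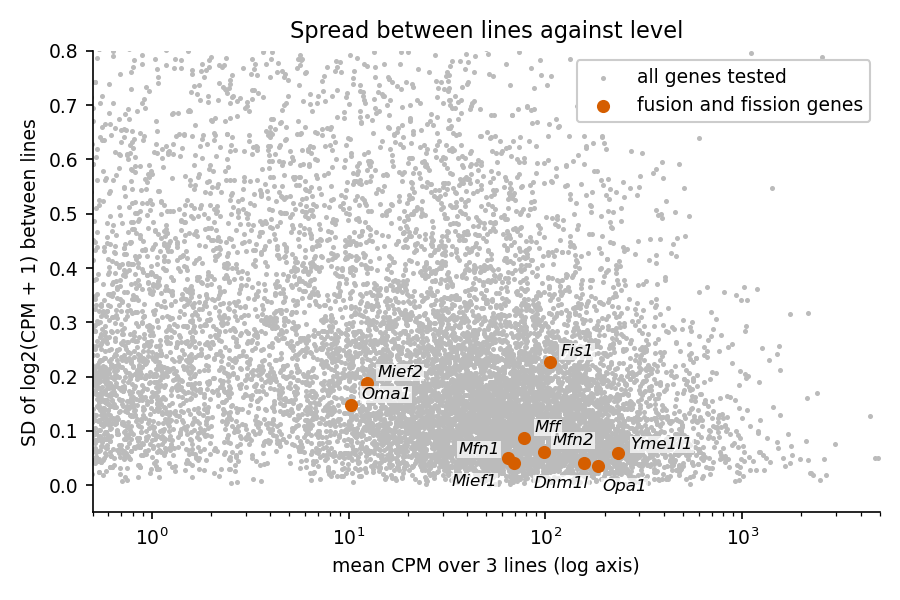
Spread between the Cdk6 KM/KM lines against level. The horizontal axis is the mean CPM on a log scale and the vertical axis the SD of log2(CPM + 1) over the 3 lines. Gray points are all genes tested, leaving out those beyond the axes, and orange points the 10 fusion and fission genes. Of these, 7 lie at or below an SD of 0.09, while *Fis1* lies at 0.23 and around 105 CPM. Its SD was above that of 63.6% of all genes tested.

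Line 1 was the highest line for 6 of the 10 genes and line 3 the lowest for 6, against 31.2% and 35.1% of all genes tested. Line 3 was also the highest for 3 genes, *Mfn2*, *Mff* and *Mief2*, against 37% of all genes. Line 2 was the highest for *Oma1* alone, against 31.7%, and line 1 was the lowest for *Mfn2* and *Mief2*, against 34.5%. No direction was thus shared by all fusion or all fission genes. *Mfn1* and *Mief1* were highest in line 1 and lowest in line 3. By contrast, *Mfn2* and *Mief2* were lowest in line 1 and highest in line 3. Of the 10 genes ranked here, *Opa1*, *Mfn1*, *Dnm1l*, *Mief1* and *Oma1* did not pass the test. *Opa1* was nearly level in lines 1 and 2, at 187.0 and 186.9 CPM.

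The neighbours of *Fis1* on its chromosome were shifted between the lines, whereas those of the other 9 genes had median deviations within 0.05 of 0 on the log2 scale. *Fis1* itself deviated from the mean of the lines by 0.20, 0.04 and -0.24 in log2(CPM + 1). The 91 expressed genes within 5 Mb of it had median deviations of 0.26, -0.05 and -0.18, and 75 of the 91 were highest in line 1, against 31.2% of all genes tested. Over the whole of chromosome 5, which also carries *Cdk6*, 644 genes had median deviations of 0.27, -0.07 and -0.19. With the median of its neighbours subtracted, the SD of *Fis1* between lines fell from 0.23 to 0.08. The same subtraction raised the SD by over 1.5 times for 4 of the 10 genes, to 0.0544 for *Opa1*, 0.0850 for *Mfn1*, 0.0725 for *Mief1* and 0.0991 for *Yme1l1*. The copy number of chromosome 5 was not measured, and its part in the *Fis1* values was not tested.

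**Figure D4:**
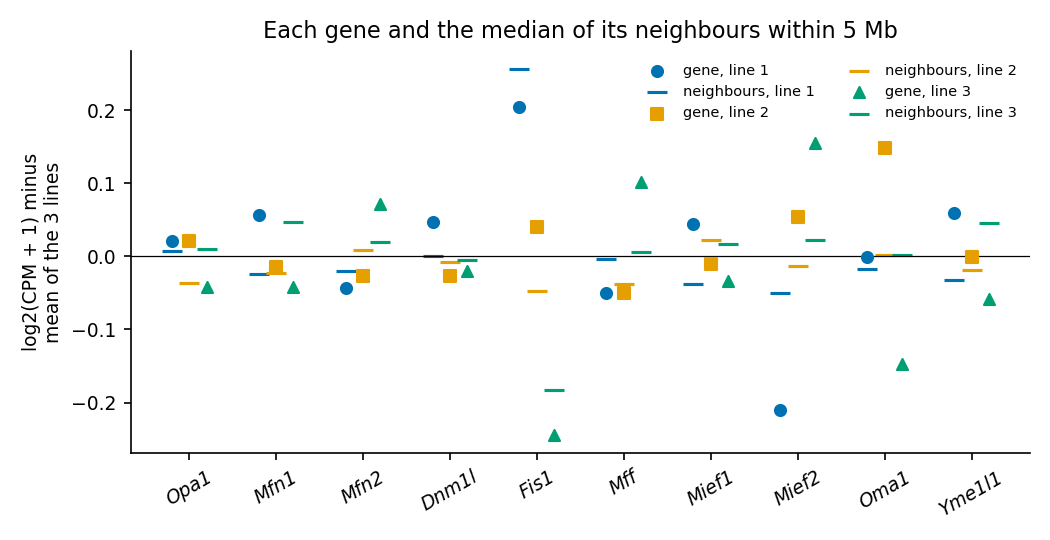
Deviation of each of the 10 genes and of its chromosomal neighbours from the mean of the lines, in log2(CPM + 1). Points are the gene and dashes the median of the expressed genes within 5 Mb, coloured by line. For *Fis1* both are highest in line 1 and lowest in line 3, at 0.20 and -0.24 for the gene and 0.26 and -0.18 for its neighbours, and for the other genes the dashes lie within 0.05 of 0.

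Around the core machinery, 50 further genes of mitochondrial dynamics were examined by role. Of these 47 had at least 10 counts over the 3 lines, and *Gdap1* and *Pld6* were among those that did not, with at most 3 counts in any line. Differences between lines exceeded counting noise for 33 of the 47 genes (70.2%), against 66.8% of all genes tested. Among genes within the range of mean CPM of the 10 core genes, the share was 79.7%. Of the 47, 5 reached the 1.5-fold limit, against 24.5% of all genes tested and 19.7% within that range. The median SD of the 47 genes was 0.10, against 0.17 over all genes tested and 0.15 within that range. The means of the 47 genes spanned 2.75 to 498 CPM, which is wider than that range.

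By role, 2 of 4 outer membrane fusion partners, 5 of 7 fission regulators and 7 of 8 inner membrane proteases and scaffolds passed the test. The same held for 5 of 8 genes of the cristae organizing complex, 6 of 7 of ubiquitin ligases and mitophagy, 5 of 9 kinases, phosphatases and anchors acting on DRP1 and 3 of 4 transport genes. Line 2 was the lowest for 26 of the 47 genes, against 30.5% of all genes tested. These included 7 of the 8 proteases and scaffolds, 6 of the 8 cristae genes and 5 of the 7 fission regulators, whereas neither *Oma1* nor *Yme1l1* was lowest there.

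Genes that were highest per length in their role were measured as follows. *Mtch2*, an outer membrane insertase, had 129, 145 and 172 CPM, so that line 3 exceeded line 1 by 1.32-fold. *Dnm2*, a classical dynamin, had 168, 183 and 175 CPM and stayed within 1.09-fold. *Phb2*, a prohibitin that scaffolds the inner membrane proteases, was the highest per length with 134 CPM per kb and had 510, 474 and 510 CPM. *Chchd3*, a subunit of the cristae organizing complex, had 216, 184 and 219 CPM. *Trak2*, an adaptor that links mitochondria to motor proteins, had 106, 102 and 111 CPM. *Chchd3* was lowest in line 2, as was *Phb2*, and the lines lay within 1.09-fold for *Trak2*.

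The 5 genes past both the test and the 1.5-fold limit did not move as a group. *Spire1*, an actin nucleator with a mitochondrial form that promotes division, was highest in line 1 with 76.7, 50.2 and 60.1 CPM (adjusted p = 4.30e-26). *Ppp3ca*, the catalytic subunit of calcineurin that dephosphorylates DRP1, was lowest in line 3 with 120, 139 and 83.1 CPM (adjusted p = 4.01e-71). *Bnip3*, a mitophagy receptor, was lowest in line 1 with 42.4, 61.1 and 65.2 CPM (adjusted p = 1.74e-25), although 62.5% of its stretches also occur in other annotated genes, so its counts are uncertain. The cristae genes *Apool*, with 22.3, 30.5 and 48.6 CPM (adjusted p = 2.31e-53), and *Apoo*, with 2.12, 1.72 and 4.40 CPM (adjusted p = 1.17e-07), were both highest in line 3. Both lie on the X chromosome, where 326 genes had median deviations of -0.26, -0.16 and 0.45 in lines 1, 2 and 3, and 45.9% of the *Apoo* stretches are shared with other genes. The part of the X chromosome in the values of *Apool* and *Apoo* was not tested.

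**Figure D5:**
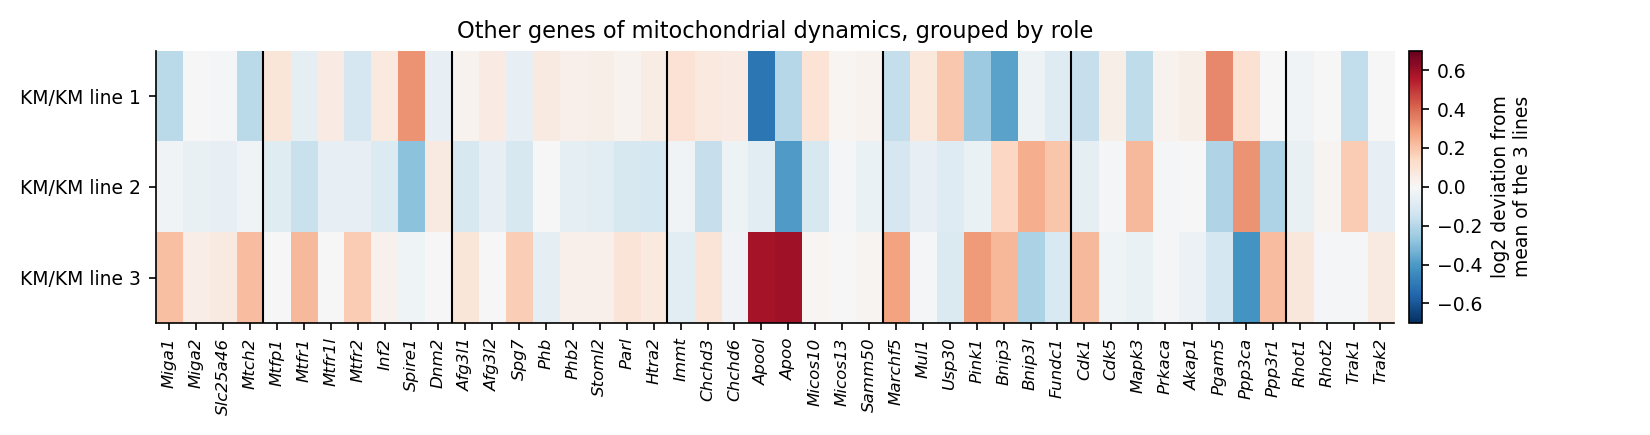
Deviation of related genes of mitochondrial dynamics from the mean of the lines. Columns are genes, with vertical lines between roles in the order of the text, rows the 3 lines, and colour the deviation in log2(CPM + 1). Most cells are pale, and *Apool* and *Apoo* stand out in line 3 at 0.58 and 0.59.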

How the data were processed

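The deposited table holds raw read counts per gene, which the authors made by trimming reads (Trimmomatic), aligning them to mm10 with STAR and counting exonic reads of Gencode M13 with featureCounts, without normalization. The strand setting was not given in the sources used here. The labels name the SENSE mRNA-Seq kit, whereas the study's methods name TruSeq. The table holds 6 columns of other samples, which were not used.

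Counts of the 3 Cdk6 KM/KM lines were scaled by TMM in edgeR 4.0.16 (R 4.3.3) and expressed as CPM. A gene was tested by chi-square if its counts summed to 10 or more. Adjusted p-values are from Benjamini-Hochberg adjustment over all genes tested, at 0.05. Spreads used log2(CPM + 1). Of the genes listed, 50462 matched Gencode M21, whose exons gave lengths. Intervals and limits from counts cover counting error only. p-values ask whether the counts of these samples differ by more than counting noise. They depend on the number of counts and do not measure the size of the spread, and the differences may be technical. Stretches of 50 bases were searched in the transcripts of all other genes. Promoters were from RefSeq. The calls, spreads, levels per length and ratios of the 10 genes, and the counts of genes passing, were recomputed, each under some of several settings. These were size factors of DESeq2 1.42.0, unscaled library sizes, other filters, a likelihood ratio test, a pseudocount of 0.1 CPM, another gene length and 1 line left out. The values per line of related genes and markers were not recomputed. The statistics were tested on simulated data in Python 3.11.15 with scipy 1.17.1. For the chi-square test these were counts with counting noise alone, equal between lines apart from genes changed in 1 line. The test was not tried on counts with the spread seen between the real lines.

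The members, lists and tests were chosen with earlier results of these data known. Named are all 10 members and, of the related genes, the highest per length in each role and those averaging 1 CPM or more that passed both the test and the 1.5-fold limit, besides *Cdk6* and the cell type markers. Some genes that this rule covers are not reported here. The neighbour comparison and the fission sum without *Fis1*, with either length, were chosen after the values were seen, as were genes named outside this rule.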

Additional observations from a re-analysis of the deposited data

How the results depend on the processing

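No paired analysis was possible because all lines carry 1 genotype and no number pairs them with another group. With 1 line left out in turn, the number of fusion and fission genes that differed between lines went from 1 (without line 3) through 4 (without line 1) to 8 (without line 2), against 5 with all lines, and it was 5 or 6 under every other setting. Over all genes, 6098 to 7267 differed with a line left out, against 9341, and over the related genes 22 to 27, against 33. The cause was not tested. The SD between lines ranged from 0.118 to 0.329 for *Fis1*, from 0.00288 to 0.107 for *Mff* and from 0.0709 to 0.247 for *Mief2* with a line left out, and that of *Fis1* was 0.0837 with its neighbours subtracted. With the longest coding transcript in place of all exons, the levels per kb were 58.5 for *Opa1*, 14.2 for *Mfn1*, 22.7 for *Mfn2*, 73.0 for *Dnm1l*, 134 for *Fis1*, 37.3 for *Mff*, 13.5 for *Mief1*, 5.34 for *Oma1* and 49.9 for *Yme1l1*. The log2 ratios were then 0.68 for *Mfn2* to *Mfn1*, 1.47 for *Mief1* to *Mief2* and 1.46 for fission to fusion genes. Without *Fis1* the ratio of fission to fusion genes reversed to -0.0466 over all exons, and it was 0.433 with the longest coding transcript. The median SD of the 10 genes stayed between 0.0488 and 0.0881. Among the values recomputed, 219 kept their direction and side of the threshold or moved by less than a limit set for each kind of value. Another 21 moved further, 1 reversed, 8 came to pass the test and 7 no longer passed it. For the SD of each gene, the limit was the spread of these SDs over the 10 genes. Large relative changes could thus count as unmoved, such as *Opa1* from 0.0359 with all lines to 0.00328 without line 3.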

Other observations

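Other genes of mitochondrial dynamics on chromosome 5, chosen after the *Fis1* values were seen, were read in the same lines. *Usp30*, a deubiquitinase of the outer membrane that opposes mitophagy, had 45.5, 37.2 and 37.0 CPM in lines 1, 2 and 3. *Pgam5*, a mitochondrial phosphatase acting on DRP1, had 155, 105 and 112 CPM, with 64.4% of its stretches shared with other genes. *Cdk5*, a kinase acting on DRP1, had 26.8, 25.9 and 25.5 CPM and did not pass the test (chi-square test, adjusted p = 0.708), although the expressed genes within 5 Mb of it had median deviations of 0.27, -0.06 and -0.22 on the log2 scale. *Fundc1*, a mitophagy receptor at the proximal end of the X chromosome, deviated by -0.09, 0.19 and -0.11, and its neighbours by -0.01, 0.03 and -0.03, in contrast to the neighbours of *Apool* (-0.37, -0.29 and 0.62).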
